A study of Homo sapiens with 9 samples.

Results

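The baseline described here is the RNA-Seq profile of untreated MDA-MB-231 cells, an established human line of triple-negative breast cancer (TNBC). Its members are the 3 libraries labelled untreated, replicates 1 to 3, out of 9 libraries in the series. The 6 libraries of cells treated with TEPA, a copper chelator, for 8 or 24 h were not used. All 9 came from flasks in DMEM with 10% FBS, and the untreated flasks received no agent. The labels do not say whether the 3 replicates were separate cultures, so the spread given below may be technical. MDA-MB-231 is 1 tumour-derived line grown on plastic, with no stroma or immune cells around it.

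The deposited values are raw counts of read pairs for 59453 gene names. The libraries held 37640135, 46515260 and 39937052 counts in replicates 1, 2 and 3, and 22611 to 23197 names had at least 1 count in a library. CPM, the counts of a gene scaled to the size of its library, are used to compare 1 gene between libraries. TPM, which also divide by gene length, are used to compare genes. A gene was called expressed at 1 CPM or more in all 3 libraries and near-silent at 3 counts or fewer in all 3. By these rules 12821 names (21.6%) were expressed and 39680 (66.7%) near-silent. Among 19363 protein-coding names, 11467 (59.2%) were expressed, against 492 of 4766 lncRNA names. The median level of the expressed names was 32.0 CPM, or 24.5 TPM, and the median over all protein-coding names was 5.42 TPM. With 1 condition there is no contrast, so values are given as mean ± SD with n = 3 and no test was run. Counts cover sampling error only, and in a gene at 0 they allow up to 3 counts, which is 0.0651 to 0.079 CPM by library.

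Breast epithelium has luminal cells, which line the ducts and carry the hormone receptors, and basal or myoepithelial cells, which surround them. In the epithelial-mesenchymal transition (EMT), repressors of the SNAI, ZEB and TWIST families turn down junction genes such as CDH1, while vimentin, fibronectin and other mesenchymal genes are made. TNBC is defined by the lack of oestrogen receptor, progesterone receptor and HER2 amplification, and MDA-MB-231 is widely used as its mesenchymal form.

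The 5 markers of the line were checked first. VIM (vimentin, the mesenchymal intermediate filament, hg38 chr10:17228241-17237593) measured 3489, 3702 and 3706 CPM in replicates 1, 2 and 3, or 2811 ± 63.1 TPM. CDH1 (E-cadherin, the adhesion protein of epithelial junctions, chr16:68737292-68835537) measured 0.711, 0.716 and 0.426 CPM, below 1 CPM in every library. EGFR (the epidermal growth factor receptor, chr7:55019017-55211628) measured 386, 462 and 442 CPM. VIM and EGFR stood above the median of expressed names in every library, and CDH1 stood below the limit for an expressed gene but above the level of 3 counts.

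ERBB2 (HER2, chr17:39687914-39730426) measured 86.1, 76.6 and 78.7 CPM, or 31.3 ± 2.68 TPM, so it was expressed. ESR1 (oestrogen receptor alpha, chr6:151656691-152129619) had 9, 8 and 2 counts, or 0.237, 0.173 and 0.0501 CPM. VIM and EGFR were high, and CDH1 and ESR1 were below 1 CPM in every library, as the label implies. ERBB2 also stood above the median of expressed names (32.0 CPM) in every library. RNA counts do not show whether ERBB2 is amplified, so the HER2 part of the label was not tested. Within libraries, the log2 ratio of VIM to CDH1 per length was 12.79 ± 0.46 and that of EGFR to ERBB2 was 1.79 ± 0.22. In bulk RNA a low level in every cell and a higher level in a few cells cannot be told apart.

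The largest shares of counts went to housekeeping, cytoskeletal and mitochondrial genes. EEF1A1, the elongation factor that brings tRNA to the ribosome, led with 8046, 8471 and 8159 CPM, followed by ACTB and ACTG1 (the cytoplasmic actins), MT-CO1 (a subunit of cytochrome c oxidase), GAPDH and VIM. The 10 highest names held 4.62 ± 0.166% of all counts, the 100 highest 16.9 ± 0.435% and the 1000 highest 48.8 ± 0.397%. It took 222 names to reach 25% of the counts, 1065 to reach 50% and 10384 to reach 99%.

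Per length the order was different. TMSB10 (thymosin beta 10, which binds actin monomers) was highest at 19874 ± 1196 TPM, and the mitochondrially encoded MT-CO3, MT-CO2, MT-CO1 and MT-RNR2 followed. FTL and FTH1, the light and heavy chains of the iron store ferritin, both lay among the 8 highest, with FTL at 8701 ± 280 TPM. PFN1 (profilin, 5613 ± 111 TPM) and S100A6 (a calcium-binding protein, 4166 ± 344 TPM) were also short, abundant transcripts. EEF1A1 stood at 3274 ± 8.55 TPM on the summed length of all its annotated exons and at 5336 TPM on the length of its canonical transcript. TMSB10 was the highest on both lengths, but the order after it turned on canonical transcript lengths, where ACTB (8772 TPM) exceeded MT-CO3 (7809 TPM) and GAPDH (7179 TPM) exceeded MT-CO2 (6930 TPM).

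Grouped by class, 84 cytosolic ribosomal protein genes held 4.43 ± 0.0567% of counts and 29 genes of the actin cytoskeleton, tubulins and intermediate filaments 4.37 ± 0.0512%. The 20 genes of glycolysis and lactate export held 1.60 ± 0.0413%, led per length by GAPDH, ENO1 and PKM, and 12 heat shock genes 0.924 ± 0.0515%. These classes differed little between libraries. The 15 mitochondrially encoded genes differed more, and took 1.79%, 2.90% and 2.13% of the counts in replicates 1, 2 and 3.

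**Figure D1:**
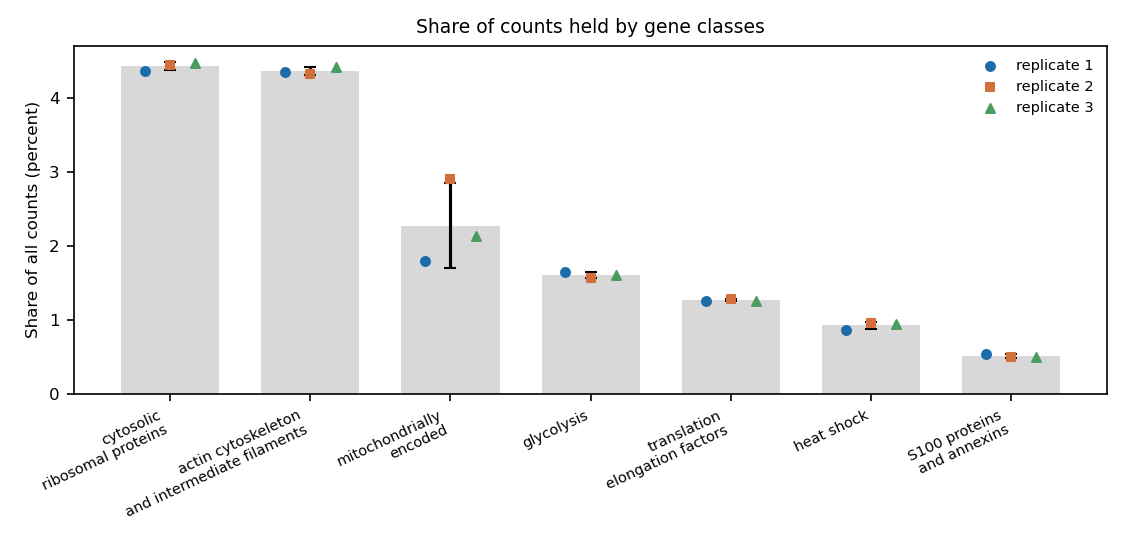
Share of all counts (percent, axis from 0) held by 7 gene classes; bars are means of the 3 untreated libraries, error bars the SD, and points the single libraries. Ribosomal protein and cytoskeletal genes hold 4.43% and 4.37%, and only the mitochondrially encoded class, from 1.79% to 2.90%, shows a wide gap between libraries.

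Read pairs that fall on overlapping genes or on near-identical copies are dropped, or given to 1 copy, by counting of this kind. EEF1G, an elongation factor subunit, had 0 counts in all 3 libraries and shared 99.7% of its exon length with another gene on the same strand in GENCODE 44. NUSAP1 (86.8% shared), CD68 (81.6%), MIF (48.9%), ALDOA (42.8%) and LDHB (33.4%) are in the same position, and their values are lower limits. Actins, tubulins, ribosomal proteins, keratin 18 and the mitochondrial genes have copies elsewhere in the genome, so their levels are uncertain to that extent.

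Of 18 luminal genes, 9 were expressed, 7 lay between the limits and 2 were near-silent. Over all protein-coding names, 59.2% were expressed and 29.5% near-silent. The luminal median was 2.80 TPM against 5.42 TPM for all protein-coding names. The keratins of simple epithelia were high, with KRT18 at 389 ± 8.98 TPM, KRT7 at 353 ± 22.6 TPM and KRT8 at 233 ± 12.05 TPM. On canonical transcript lengths that order turned, with 480, 494 and 511 TPM for KRT18, KRT7 and KRT8. KRT8 measured 410, 389 and 401 CPM, so the libraries lay close together. KRT19, a further simple keratin, measured 0.211, 0.152 and 0.325 CPM.

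XBP1, a factor of secretory cells, was expressed at 147 ± 15.4 TPM. GATA3 (12.4 TPM) and FOXA1 (3.25 CPM or less in each library), the factors that set luminal identity, were low but above the limit. The hormone-linked genes TFF1, TFF3 and AGR2 were also low, and AGR2 ran from 0.954 CPM in replicate 2 to 2.98 CPM in replicate 1. PGR (progesterone receptor) and ELF5, a factor of luminal progenitors, had 0 counts.

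The basal list gave 7 of 18 expressed and 6 near-silent, against 59.2% and 29.5% of all protein-coding names, with a median of 0.141 TPM. ITGB4, the laminin-binding integrin of hemidesmosomes, was the highest at 110 ± 15.9 TPM, and FOXC1, a factor often used to mark basal-like tumours, stood at 19.0 TPM. The basal keratins were not among the expressed genes. KRT5 had 2, 2 and 0 counts, KRT14, KRT6A and KRT6B had 0 in all libraries, and TP63, the master factor of basal cells, measured 0.29, 0.13 and 0.25 CPM. SOX10 and EN1 were at 0.

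Of 23 epithelial junction genes and their regulators, 10 were expressed, 5 lay between the limits and 8 were near-silent (median 0.556 TPM). Over all protein-coding names the shares were 59.2% expressed and 29.5% near-silent. CLDN4, a tight junction claudin, was the highest per length at 74.1 ± 7.02 TPM, and measured 92.9, 80.8 and 86.5 CPM. PKP3 (a desmosomal plakophilin) stood at 50.8 ± 0.874 TPM and TJP1 (ZO-1, a scaffold also found at other junctions) at 34.4 ± 0.153 TPM. EPCAM measured 1.08, 1.26 and 1.001 CPM, just inside the limit. The epithelial splicing factor ESRP1 and the regulators GRHL2, OVOL1 and OVOL2, which hold the epithelial state, had 0 counts in all libraries, as did MARVELD3. ESRP2, the close relative of ESRP1, measured 0.975, 1.32 and 1.15 CPM.

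Promoters of 2 junction genes are shown because the letters CAGGTG, read on either strand, form the E-box bound by SNAI and ZEB repressors. They are the 250 bases before the RefSeq start site (GRCh38.p14, plus strand, 5′ to 3′), with each CAGGTG or CACCTG in capitals. CRB3, a polarity protein of the apical membrane, measured 0.158, 0.0867 and 0.200 CPM, while CLDN4 was the highest of the list per length.
CRB3, chr19:6464021-6464270: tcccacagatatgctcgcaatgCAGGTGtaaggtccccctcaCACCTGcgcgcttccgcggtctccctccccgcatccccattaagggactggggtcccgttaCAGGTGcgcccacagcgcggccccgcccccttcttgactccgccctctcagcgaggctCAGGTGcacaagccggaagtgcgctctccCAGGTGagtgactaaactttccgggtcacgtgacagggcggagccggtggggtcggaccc
CLDN4, chr7:73830746-73830995: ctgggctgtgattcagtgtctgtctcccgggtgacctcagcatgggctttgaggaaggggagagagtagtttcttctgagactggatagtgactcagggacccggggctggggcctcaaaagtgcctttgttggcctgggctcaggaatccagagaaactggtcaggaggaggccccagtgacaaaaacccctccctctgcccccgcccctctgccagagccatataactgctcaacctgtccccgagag

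The CRB3 window held 5 matches, the most of the list, and the CLDN4 window 0. Windows not shown went the other way, with 4 matches in 1 of expressed CLDN7. Those of LSR, between the limits, and of near-silent CLDN3 held 0. At least 1 match stood in 6143 of all 35116 windows of this length (17.5%), and 5 or more in 26 (0.074%). Of the 23 junction genes, 13 had a window in the table, CDH1 and EPCAM not among them, and 9 of their 20 windows (45%) held a match. By gene the match was found for 5 of 8 expressed members, 1 of 2 between the limits and 2 of 3 near-silent members. The matches are letters in a window, and no binding was measured.

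Mesenchymal structural genes were expressed in 24 of 30 cases, against 59.2% of all protein-coding names, with a median of 49.6 TPM. After VIM, the highest per length were ITGB1 (the shared beta chain of matrix-binding integrins, 764 ± 33.5 TPM), AXL (a receptor kinase of mesenchymal tumour cells, 528 ± 45.8 TPM), FN1 (fibronectin, 443 ± 115 TPM), COL6A1 (378 ± 27.8 TPM) and CD44 (the hyaluronan receptor, 340 ± 16.6 TPM). On canonical transcript lengths FN1 (517 TPM) exceeded AXL (327 TPM). FN1 measured 2391, 1519 and 1783 CPM, and its highest library was 1.57 times its lowest. Basement membrane collagens COL4A1 and COL4A2, COL5A1 and COL6A2 were all above 200 CPM in each library.

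Some mesenchymal genes were nearly missing. CDH2 (N-cadherin) measured 0.211, 0.195 and 0.300 CPM, so neither CDH1 nor CDH2 reached 1 CPM. The log2 ratio of CDH2 to CDH1 was -1.88 ± 0.76 per length, -1.12 on canonical transcript lengths and -1.38 without length scaling. Both genes had few counts, so the size of this ratio is uncertain. THY1 and POSTN, both of fibroblasts, had 0 counts. COL1A1 stood at 14.0, 13.6 and 12.97 CPM, while its fibril partner COL1A2 had 0.158 CPM in replicate 1 and 0 in the others, and COL3A1 had at most 0.0527 CPM. TAGLN (smooth muscle transgelin) measured 4.08, 6.22 and 5.66 CPM, with 38.1% of its exon length shared with another gene.

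**Figure D2:**
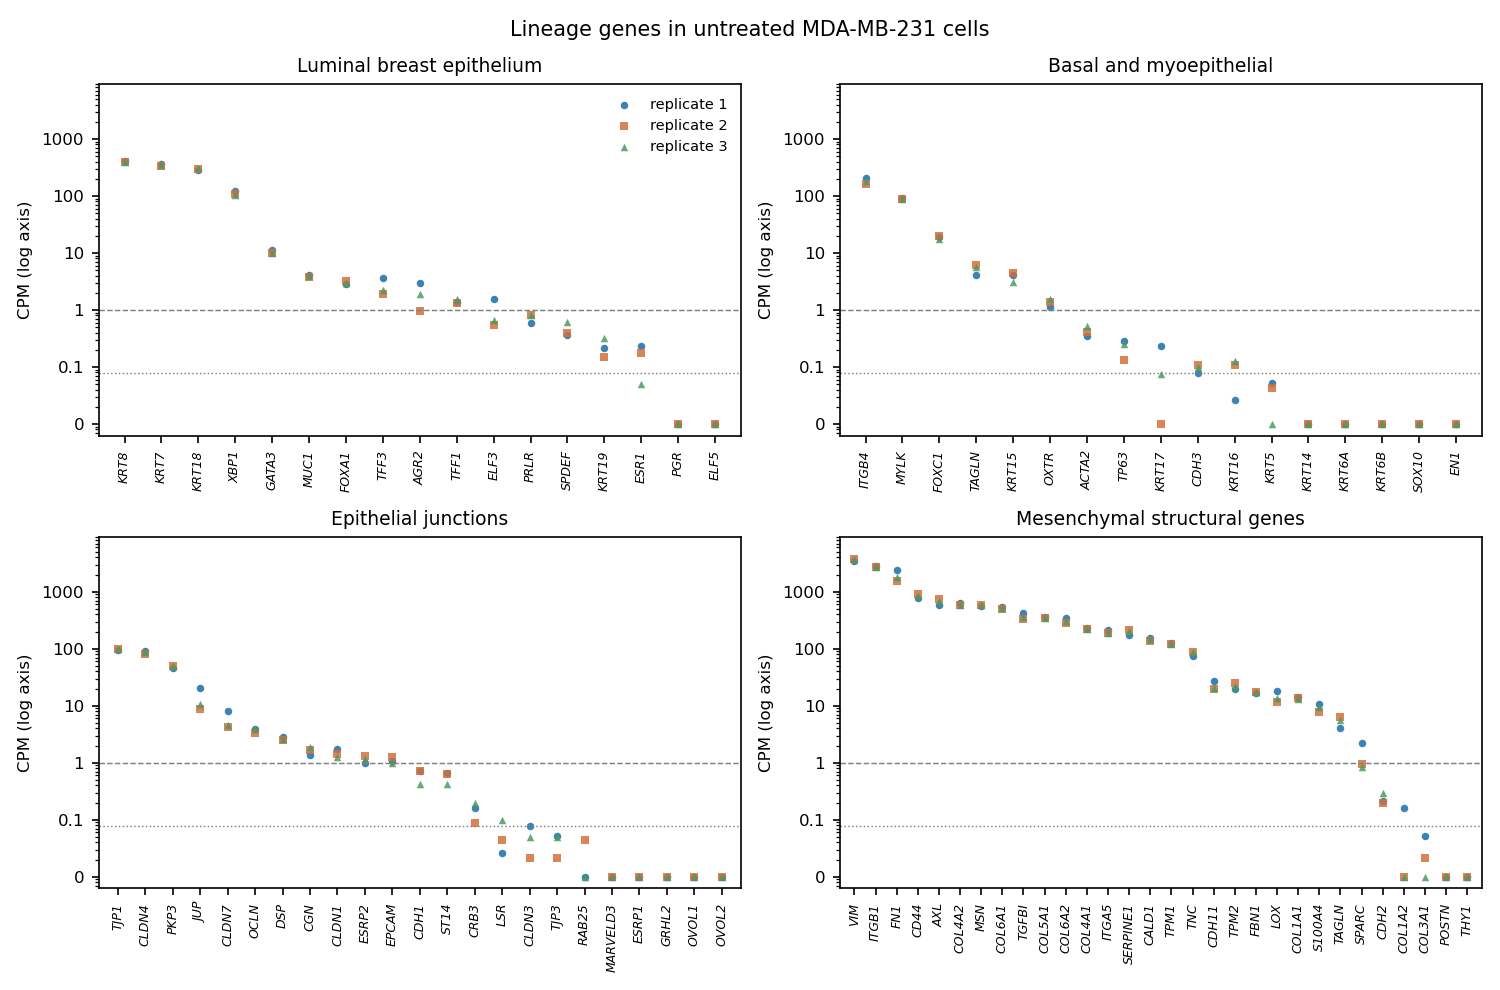
CPM (log axis, with 0 drawn at the bottom) of members of the luminal, basal, junction and mesenchymal lists in the 3 untreated libraries, ordered by mean CPM; the dashed line is 1 CPM and the dotted line the highest CPM that 3 counts make, 0.079. KRT8, KRT7 and KRT18 lie near 300 to 400 CPM while KRT5 and KRT14 lie at the bottom, and 24 of 30 mesenchymal genes lie above the dashed line.

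Among 13 EMT transcription factors 5 were expressed and 6 had 0 counts, against 59.2% and 22.5% of all protein-coding names. TCF3 (E2A, a broadly expressed partner of basic helix-loop-helix factors) was the highest at 132 ± 2.47 TPM. ZEB1, a direct repressor of CDH1, measured 116, 117 and 120 CPM, or 54.4 ± 1.73 TPM. SNAI2 (Slug) measured 28.7, 34.0 and 32.6 CPM, SNAI1 (Snail) 14.4, 9.95 and 13.1 CPM, and ZEB2 20.7, 19.5 and 19.6 CPM. Per length ZEB1 was 17.8 times ZEB2, with a log2 ratio of 4.15 ± 0.0684. That ratio was 3.20 on canonical transcript lengths and 2.56 without length scaling, so its size depends on the length used. SNAI2 and SNAI1 differed by 0.42 ± 0.39 on the log2 scale, about the spread between libraries, and by 1.01 on canonical transcript lengths. TWIST1, TWIST2, PRRX1, FOXC2, GSC and KLF8 had 0 counts in all libraries. ESRP1 was set to the 3 counts that a 0 allows in each library. The mean log2 ratio of ZEB1 to ESRP1 per length was then at least 9.83, or 909-fold. The lowest bound, in replicate 1, was 9.69.

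Of 14 stem-like surface and ALDH genes 9 were expressed, against 59.2% of all protein-coding names. CD44 (783, 906 and 857 CPM) was far above CD24, a sialoglycoprotein used with it to sort mammary stem-like cells (1.05, 1.02 and 1.48 CPM), and the log2 ratio per length was 7.81 ± 0.31. NT5E (CD73, 315 ± 4.69 TPM), ENG (endoglin, a TGF-β co-receptor, 226 ± 14.1 TPM) and ITGA6 (219 ± 7.12 TPM) were high. ALDH1A3 measured 26.2, 28.3 and 27.5 CPM against 0.175 CPM or less for ALDH1A1. SOX2, NANOG, POU5F1 and PROM1 (CD133) had 0 counts.

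Receptor tyrosine kinases were expressed in 18 of 34 cases, and 9 were near-silent, against 59.2% and 29.5% of all protein-coding names. EPHA2, an ephrin receptor, was the highest per length at 622 ± 12.3 TPM and measured 640, 647 and 640 CPM. AXL followed at 528 ± 45.8 TPM, and its CPM of 595, 736 and 701 had replicate 1 lowest. MET (the hepatocyte growth factor receptor, 122 ± 2.36 TPM) and EGFR (108 ± 7.45 TPM) came next, an order that turned on canonical transcript lengths, where MET stood at 73.4 and EGFR at 98.8 TPM. EPHB4 (86.0 TPM), FGFR1 (48.8 TPM), EPHB2 (36.1 TPM) and ERBB2 (31.3 TPM) were the others of the 8 highest.

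The ERBB family was uneven. ERBB3, the kinase-poor partner of ERBB2, measured 0.790, 0.672 and 1.05 CPM, and ERBB4 0.175 CPM or less. AXL exceeded ERBB3 by 10.87 ± 0.37 on the log2 scale per length. The TAM relatives of AXL were lower, with TYRO3 at 42.5, 42.6 and 44.04 CPM and MERTK at 7.32, 8.22 and 7.16 CPM. PDGFRB was expressed (40.7, 28.4 and 32.2 CPM), while PDGFRA had 0, 1 and 1 counts. FLT1, FLT4, TEK, ALK and NTRK3 had 0 counts.

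Among growth factor ligands 22 of 29 were expressed, including ligands of EGFR and AXL, against 59.2% of all protein-coding names. CCN1 and CCN2, matricellular proteins and known YAP targets, were the highest at 986 ± 49.2 and 390 ± 17.9 TPM. The EGFR ligands HBEGF (139 ± 0.538 TPM) and TGFA (106 ± 7.52 TPM) were high, and EREG measured 91.8, 82.5 and 86.8 CPM against 1.76, 2.04 and 1.78 CPM for EGF itself. GAS6, the ligand of AXL, measured 74.6, 86.4 and 85.4 CPM. TGFB1 (231 ± 16.5 TPM) and TGFB2 (121 ± 4.35 TPM), ligands of the TGF-β pathway, were both expressed, and TGFB3 stood at 6.14, 5.18 and 5.01 CPM. HGF, the ligand of MET, had 0 counts, as did FGF2 and IGF1. IGF2 also had 0 counts but shares 43.2% of its exon length with another gene.

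Nuclear receptors were expressed in 18 of 23 cases, against 59.2% of all protein-coding names. ESRRA, an orphan receptor of energy metabolism, was the highest per length at 104 ± 2.91 TPM. NR3C1, the glucocorticoid receptor, measured 147, 153 and 152 CPM, or 66.0 ± 0.830 TPM, and exceeded ESR1 by 10.80 ± 1.20 on the log2 scale, with the spread coming from the 9, 8 and 2 counts of ESR1. NR2F2 (71.9, 102 and 96.0 CPM) had replicate 1 lowest, and RARG, RXRA and VDR were also among the 8 highest. The steroid receptors of breast tissue lay at the other end, with ESR2 at 0.5004, 0.260 and 0.300 CPM and PGR at 0.

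Cytokines and chemokines were expressed in 16 of 41 cases, and 14 were near-silent, against 59.2% and 29.5% of all protein-coding names. Per length MIF, with the overlap given above, was the highest at 840 ± 68.8 TPM. IL11, a gp130 cytokine linked to bone metastasis, measured 448, 460 and 476 CPM, or 691 ± 23.8 TPM. CSF1, the macrophage growth factor, measured 409, 307 and 334 CPM, LIF 151, 159 and 156 CPM, and the pentraxin PTX3 79.4, 84.0 and 79.5 CPM. CSF2 and CSF3, growth factors of granulocytes and macrophages, stood at 69.1 ± 19.8 and 45.3 ± 6.603 TPM. IL11 had a ratio of highest to lowest library of 1.06, against 1.57 for CSF2.

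The inflammatory cytokines were lower and more variable. IL6 measured 20.7, 11.3 and 13.5 CPM, CXCL8 18.1, 8.11 and 9.86 CPM, and CXCL1 8.48, 2.86 and 4.33 CPM, each highest in replicate 1 and lowest in replicate 2. IL1B ran from 0.867 to 1.84 CPM, and CCL2 from 0.225 to 0.632 CPM. TNF, IFNG, IL10, IL33 and CXCL5 had 0 counts. CXCL12 had 1, 1 and 0 counts.

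Of 29 cytokine receptors 21 were expressed, against 59.2% of all protein-coding names. TNFRSF1A (156 ± 14.4 TPM) and IFNGR2 (117 ± 11.9 TPM) were the highest per length. IL6ST (gp130, the signalling chain that IL6, IL11 and LIF share) measured 297, 298 and 297 CPM. The specific chains were uneven, with OSMR at 141, 127 and 131 CPM, LIFR at 49.3, 50.6 and 52.4 CPM, IL6R at 7.51, 9.13 and 8.59 CPM, and IL11RA, which shares 32.5% of its exon length, at 4.27, 3.69 and 4.43 CPM. CXCR4, the receptor of CXCL12, had 0.132 CPM or less, and CXCR2 and ACKR3 had 0 counts.

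**Figure D3:**
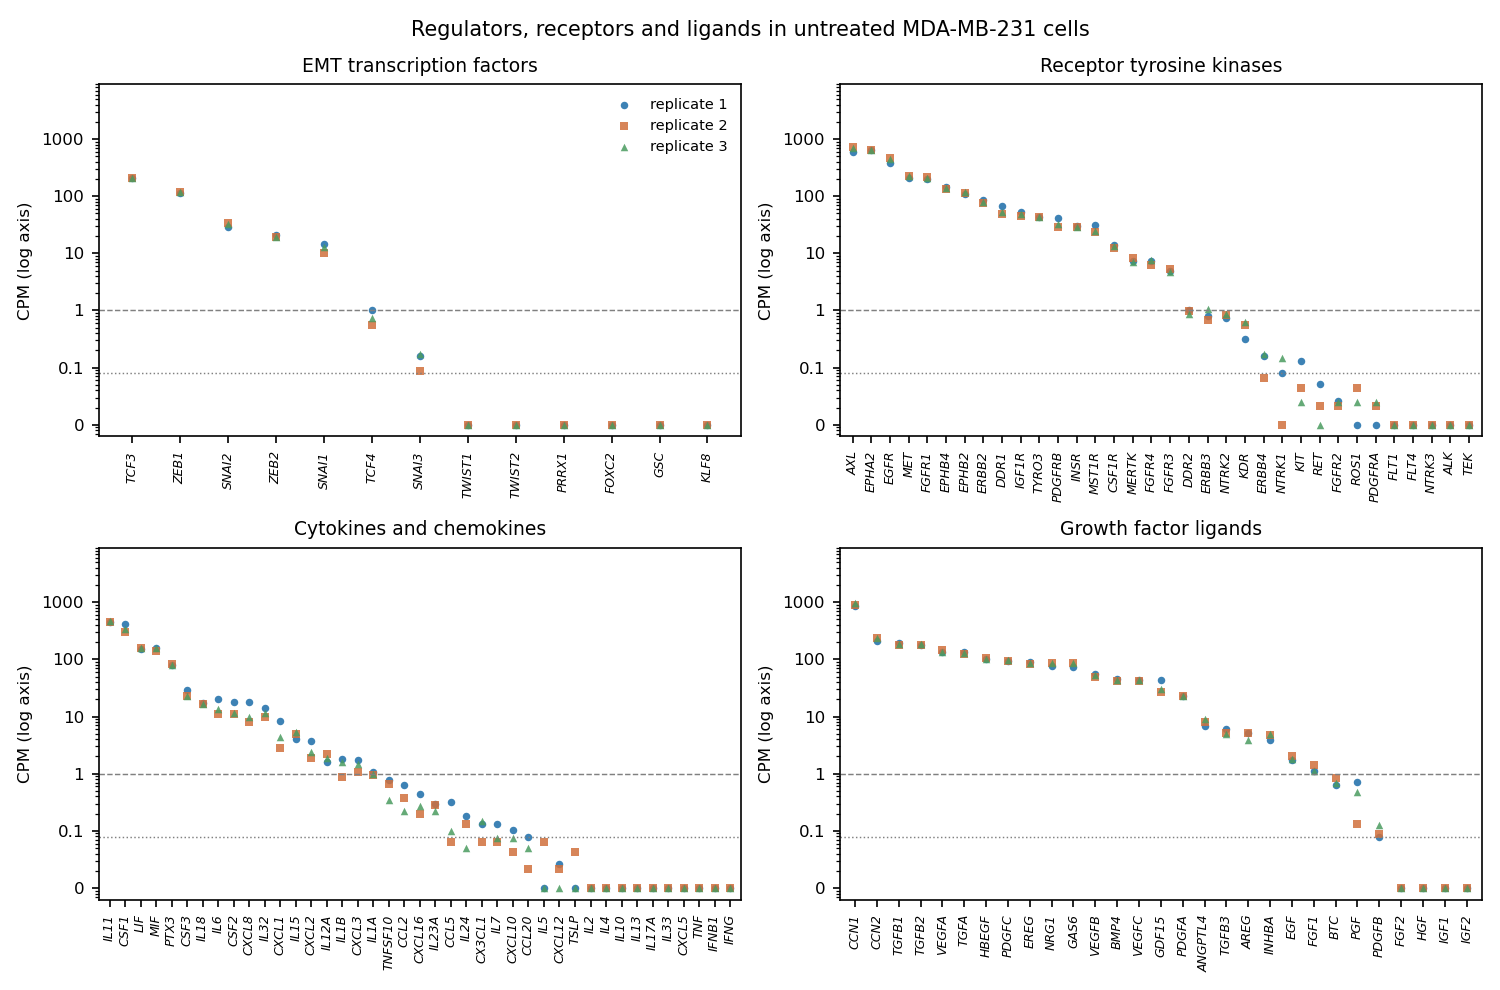
CPM (log axis, with 0 drawn at the bottom) of every EMT transcription factor, receptor tyrosine kinase, cytokine and growth factor ligand on the lists in the 3 untreated libraries, ordered by mean CPM; the dashed line is 1 CPM and the dotted line 0.079 CPM, the most that 3 counts make. TCF3 and ZEB1 lie above 100 CPM with TWIST1 and TWIST2 at 0, and the points of replicate 1 stand above the others for IL6, CXCL8 and CXCL1.

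Oncogenes and RAS pathway genes were nearly all expressed, 35 of 38, against 59.2% of all protein-coding names, with a median of 74.0 TPM. FOSL1 (FRA1, an AP-1 subunit of mesenchymal tumour cells) was the highest at 838 ± 76.4 TPM and measured 345, 430 and 411 CPM. CCND1 (cyclin D1) stood at 448 ± 20.4 TPM, with AURKA (329 ± 1.14 TPM), BCL2L1 (326 ± 3.92 TPM), CDK4 (271 ± 3.43 TPM), HRAS (198 ± 3.24 TPM), MCL1 and BIRC5. FOS itself was low and uneven at 12.7, 3.21 and 8.94 CPM, and FOSL1 exceeded it by 6.54 ± 1.17 on the log2 scale.

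MYC measured 97.2, 107 and 106 CPM while MYCN had 0 counts. With MYCN at 3 counts, the mean log2 ratio of MYC to MYCN per length was at least 9.32, or 640-fold. The lowest bound, in replicate 1, was 9.12. NRAS, a RAS GTPase, measured 159, 166 and 169 CPM. BRAF, a kinase activated by RAS, measured 32.3, 30.3 and 31.0 CPM. Gene counts do not separate mutant from normal alleles.

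Tumour suppressors were expressed in 23 of 25 cases, against 59.2% of all protein-coding names, with a median of 15.9 TPM. Of those 23, 0 varied beyond 1.5-fold, against 2.11% of all names tested. Receptor tyrosine kinases (0 of 18) and nuclear receptors (0 of 17) gave the same count. In lists of this size a count of 0 is near the share of 2.11%, so it does not mark them as steadier. KEAP1, which marks NRF2 for breakdown (171 ± 0.524 TPM), and RB1, the retinoblastoma protein (106 ± 0.510 TPM), were among the highest. BRCA1, of DNA repair, measured 77.9, 78.2 and 77.7 CPM. The other 2 members, CDKN2A and CDKN2B, which encode inhibitors of CDK4 and CDK6, had 0 counts in all 3 libraries.

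Both lie on chromosome 9p21, and their neighbours were at 0 as well. Between FOCAD and TUSC1, from HACD4 to IZUMO3 (chr9:20999509-24545946, 3546 kb), the files hold 50 gene names, of which 48 had 0 counts in every library. All 24 protein-coding names there were at 0. Over all names in the files, 33271 (56%) and 22.5% of the protein-coding names were at 0. Of the 24 in this stretch, 16 are interferon genes, which most cells make only on stimulation. The other 8 are HACD4, KLHL9, MTAP, CDKN2A, CDKN2B, DMRTA1, ELAVL2 and IZUMO3. MTAP is an enzyme of methionine salvage present in most tissues.

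The 2 names not at 0 are processed pseudogenes, copies of spliced transcripts from elsewhere. CLIC4P1 had 134, 158 and 142 counts, and its parent CLIC4 on chromosome 1 had 9341, 10194 and 9514. KHSRPP1 had 3, 2 and 1 counts, and its parent KHSRP had 22839, 29935 and 25738. Reads of such copies cannot be told from reads of the parent with certainty. On the outer sides FOCAD measured 1.24, 1.17 and 1.55 CPM, MLLT3 6.61, 5.73 and 6.03 CPM, TUSC1 16.8, 16.6 and 15.1 CPM, CAAP1 16.9, 17.4 and 16.8 CPM, and PLAA 53.0, 53.7 and 51.4 CPM. LRRC19, beyond PLAA on the same side, had 0 counts, as did noncoding names there such as LINC01241. No DNA was measured, so the counts do not show whether these genes are present in the genome of the cells.

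**Figure D4:**
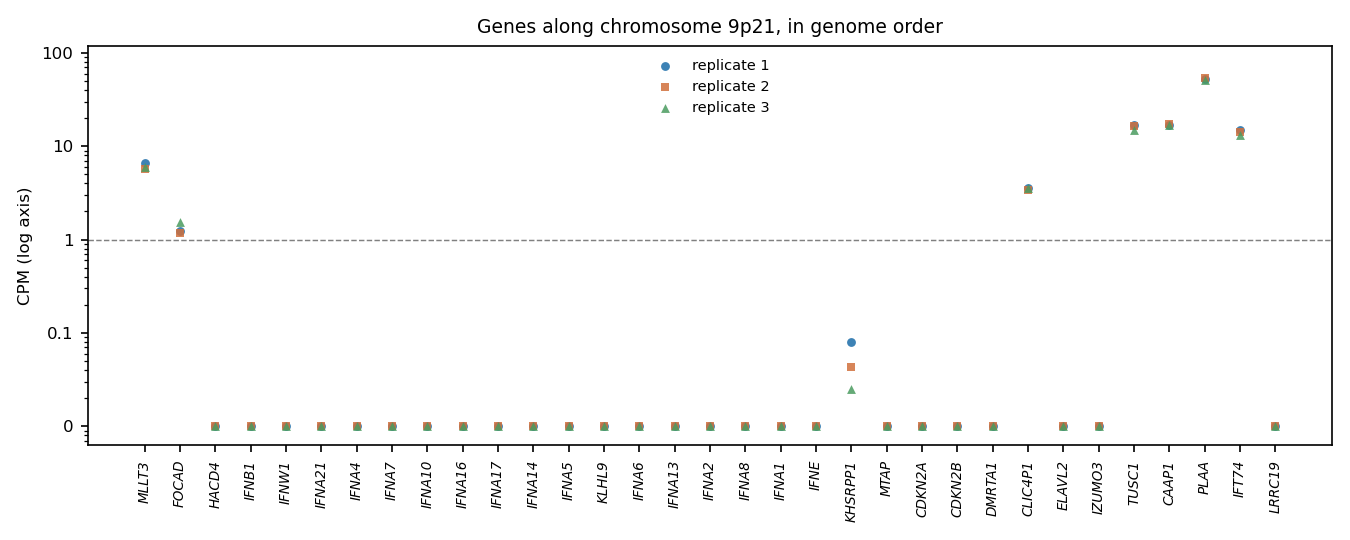
CPM (log axis, with 0 drawn at the bottom) in the 3 untreated libraries of the protein-coding genes along 9p21, in genome order without distances, and of the 2 pseudogenes with counts; the dashed line is 1 CPM. From HACD4 to IZUMO3 only KHSRPP1 and CLIC4P1 are above 0, and PLAA, at 51.4 to 53.7 CPM, is the highest gene shown.

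Markers of other cell types were looked for in 5 lists, to be set against 59.2% expressed over all protein-coding names. Of 12 haematopoietic markers 2 were expressed, CSF1R at 14.0, 12.5 and 13.4 CPM and CD14 at 4.98, 2.82 and 3.63 CPM, while CD3E, MS4A1 and the haemoglobin genes HBA1, HBA2 and HBB had 0 counts and PTPRC (CD45) had 0.132 CPM or less. Of 7 endothelial markers PECAM1 (4.03, 2.95 and 3.68 CPM) was expressed, with VWF and CDH5 at 0.079 CPM or less. Of 9 fibroblast markers PDGFRB and COL1A1 were expressed, with DCN and FAP at 0. None of 6 adipocyte markers was expressed. Of 10 melanocytic and neural markers MITF (12.4, 12.4 and 11.9 CPM) was expressed and PMEL measured 1.21, 1.02 and 0.976 CPM. The summed level over libraries ran from 15.98 to 19.9 CPM for the haematopoietic, 3.51 to 4.45 CPM for the endothelial and 42.1 to 54.9 CPM for the fibroblast list.

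The replicates were next compared with each other. For 11853 names with a mean of 100 counts or more, the median CV of CPM was 4.72%, against 2.57% from counting alone, and the median ratio of the highest to the lowest library was 1.09. Of these, 6296 differed by less than 1.1-fold. A gene was called varying when that ratio exceeded 1.5, which held for 250 names (2.11%), and 32 exceeded 2. Just inside the limit stood BANK1 at 1.504 and just outside it ZNF782 at 1.4998.

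Replicate 1 stood apart from the others. Replicates 1 and 2 differed beyond 1.5-fold in 215 names (1.81%), replicates 1 and 3 in 84 (0.709%), and replicates 2 and 3 in 23 (0.194%). Across genes, log2 CPM correlated at Pearson's r of 0.994, 0.996 and 0.998 in the same order, and genes are not independent replicates. With the mitochondrially encoded genes left out of the totals and the count, 244 names were varying. Leaving out 1 library leaves 1 pair, so the count of varying names is then that of the pair by construction. It was 23 without replicate 1, 84 without replicate 2 and 215 without replicate 3, and is no second check. Among the 250, replicate 1 was the highest in 166 and the lowest in 75. Replicate 3 lay between the others in 202 of 250 (80.8%), against 52.5% of all names tested.

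The mitochondrially encoded genes varied most as a group. All 15 were highest in replicate 2 and lowest in replicate 1, against 37.7% and 41.4% of all names tested, and 12 of 15 were varying, against 2.11% of all names tested. Their median log2 difference from the mean of the other libraries was -0.56, 0.62 and -0.15 in replicates 1, 2 and 3. MT-CO1 measured 3577, 5840 and 4213 CPM. MT-ND6, the complex I subunit read from the opposite strand, measured 7.14, 22.5 and 12.7 CPM, and had the largest ratio of the class, 3.15. MT-RNR1 and MT-RNR2 are ribosomal RNAs, and the others encode proteins of the respiratory chain. The order of the libraries in these genes was the reverse of that in the sterol and cytokine genes described next, and its part in those was not tested.

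Sterol genes moved the other way. Of 24 genes of cholesterol synthesis and uptake 21 were highest in replicate 1 and 23 lowest in replicate 2, against 39.9% and 33.4% of all names tested. Their medians were 0.24, -0.21 and -0.04, and 2 of 24 were varying, against 2.11% of all names tested. INSIG1, a regulator of the pathway, measured 144, 93.6 and 119 CPM, and SREBF2, the factor that drives the pathway, 235, 163 and 185 CPM.

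Cytokines gave 5 varying genes of 14 tested, against 2.11% of all names, and 10 of the 14 were highest in replicate 1, against 39.9% (medians 0.33, -0.22 and -0.08). NF-kB feedback genes were highest in replicate 1 in 10 of 11 cases, against the same 39.9%, led by ICAM1, an adhesion molecule, at 54.6, 32.9 and 33.8 CPM. Mitotic genes were lowest in replicate 1 in 16 of 17 cases, against 41.4% of all names tested, with a median of -0.09, and MKI67, the proliferation antigen, measured 367, 455 and 443 CPM. Heat shock genes had a median of -0.18 in replicate 1, and HSPA8 measured 2061, 2483 and 2360 CPM. Oncogenes and tumour suppressors moved little, with medians within 0.03 in each replicate.

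**Figure D5:**
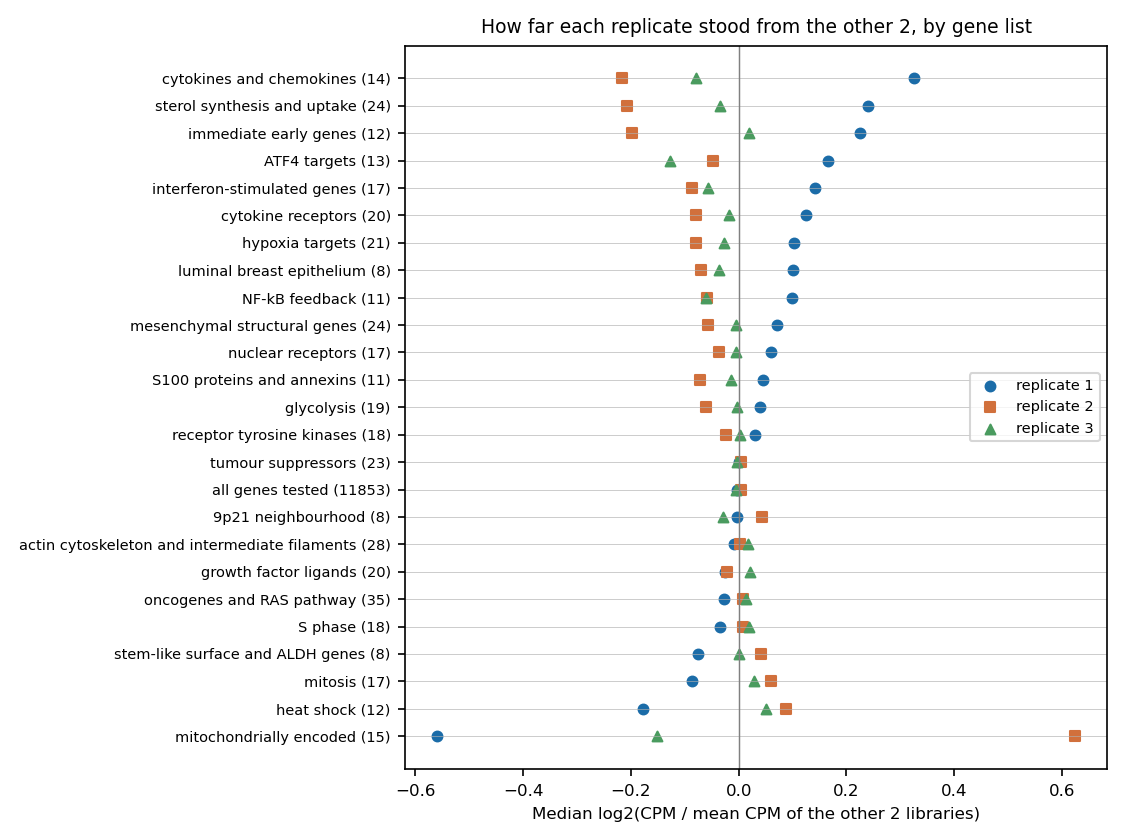
Median log2 ratio of each untreated library to the mean of the other 2, for every list with at least 8 members of 100 counts or more on average (number tested in brackets) and for all 11853 names tested; circles, squares and triangles are replicates 1, 2 and 3. Mitochondrially encoded genes run from -0.56 in replicate 1 to 0.62 in replicate 2, cytokines and sterol genes lie highest in replicate 1, and tumour suppressors lie near 0 in each.

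The 20 names of largest spread beyond counting error were led by multi-copy genes. XAGE1A, a cancer-testis antigen, measured 10.5, 0.369 and 0.250 CPM and IKBKGP1, a pseudogene of IKBKG, 1.16, 1.52 and 16.3 CPM. SMN1, the survival motor neuron gene, measured 32.8, 12.5 and 12.6 CPM against 8.27, 9.74 and 9.21 CPM for its near-identical copy SMN2, and NPEPPSP1 5.48, 2.02 and 2.25 CPM. Reads of near-identical copies cannot be placed on 1 copy with certainty, so their sums were also taken.

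XAGE1A and XAGE1B together still ran from 0.716 to 11.2 CPM, a ratio of 15.6. SMN1 and SMN2 summed to 41.1, 22.2 and 21.8 CPM, a ratio of 1.88, and IKBKG with IKBKGP1 to a ratio of 1.81. NPEPPS with NPEPPSP1 had a ratio of 1.06, but NPEPPS alone measured 99.5, 97.7 and 96.8 CPM, far above its copy. That sum therefore follows NPEPPS and does not bear on the spread of NPEPPSP1. The other sums stayed above the limit of 1.5.

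Of the other 16 names among the 20, MT-ND6 and IGFN1 (26.3, 66.0 and 45.1 CPM) were lowest in replicate 1, and the rest were highest there. They include the complement genes C3 (80.9, 33.5 and 40.1 CPM) and C1S (7.30, 3.47 and 4.11 CPM), the chemokines CXCL1 and CXCL8, the cholesterol exporter ABCG1 (10.1, 4.10 and 5.23 CPM), FOS, JUP (plakoglobin, 20.4, 8.67 and 10.5 CPM) and the glycolytic ALDOC (18.3, 8.22 and 10.4 CPM). Retinoid genes DHRS3 and STRA6, the bradykinin receptor BDKRB2, and DEPP1 and METTL7A were also in the set, with ratios from 2.09 to 2.67.

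At the other end, the 5 steadiest names with 1000 counts or more on average included PRKAR1A, ZNF274, KDM1A and USF2. PRKAR1A, a regulatory subunit of protein kinase A, measured 212.1, 212.2 and 212.2 CPM, less spread than counting error gives. The 5 were chosen for their small spread, so it is a description of the list.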

How the data were processed

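The libraries were stranded mRNA libraries of MDA-MB-231 cells, sequenced as paired-end reads of 100 bases. After quality control (FastQC) and alignment to hg38 (HISAT2), the authors summed read pairs over the exons of each gene name by strand (featureCounts) and deposited these raw counts without normalization. Of 9 columns, 3 untreated ones were used and 6 TEPA columns were not; 0 columns lacked a sample. Total counts per library set the precision, and counting error is the least error.

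CPM used TMM factors of 0.991 to 1.009 from these 3 libraries (edgeR 4.0.16, R 4.3.3). TPM used the exon-union length of GENCODE 44 on hg38; 39160 names, with 99.6% of counts, had a length. Other values were computed in Python 3.11.15 and tested on simulated counts. Promoters are from RefSeq (GRCh38.p14).

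The members and 34 gene lists (611 genes) were chosen with earlier results of these data known. Genes named were the 5 markers, the highest per list (up to 8) and overall (25), members near 0, the 20 most and 5 least variable, and the most variable of each list; others, at the low end of a list or beside a named gene, were chosen after their values were seen. Alternatives were other scalings (raw totals, RLE), thresholds, units and lengths, and leaving out each library. A few genes picked out by this rule are not reported here.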

Additional observations from a re-analysis of the deposited data

How the results depend on the processing

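No paired analysis was possible because the values come from 1 group and from no test. The 5 marker levels moved by less than their SD under raw totals and RLE factors. Leaving out 1 library always moves a mean of 3 by less than its SD, so that check could not fail. ESR1, at a mean of 0.154 CPM, stood at 0.112 CPM without replicate 1 and 0.205 CPM without replicate 3. The share of the 10 highest names was 4.44% with mitochondrially encoded genes left out, 10.5% in TPM and 7.36% in TPM on canonical transcript length, the last added after the data were seen. Expressed names numbered 26182 when 1 count in any library sufficed, and were within 1.5 times 12821 under the other limits. Varying names numbered 2240 with a minimum of 10 counts, 490 with 50, 63 with 500 and 32 at a fold limit of 2. With 1 library left out they ranged from 23 to 215 (23 without replicate 1), which are the counts of the remaining pairs by construction. Raw totals and RLE factors left the count of varying names over the 3 libraries within 1.5 times. Pair ratios depended on gene length, and their count with the first gene higher, 12 of 15, stayed within 1.5 times. No value changed sign. The depth limits genes under about 100 counts, where counting error alone nears 10%.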

Other observations

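Further gene groups were measured in the untreated cells. All 21 hypoxia targets were expressed, against 59.2% of all protein-coding names. They ran from LDHA (2040, 1858 and 1943 CPM) down to ANKRD37 (3.11, 2.93 and 2.63 CPM). CA9, the carbonic anhydrase often used as a hypoxia marker, measured 5.66, 2.62 and 3.78 CPM. Interferon-stimulated genes were present without any interferon gene at 9p21, with ISG15 at 267 ± 21.1 TPM, BST2 at 164 ± 22.4 TPM and IFIT3 at 88.2 ± 4.70 TPM, while RSAD2 measured 0.290, 0.217 and 0.300 CPM. No relation between these was tested.

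Among 9 metallothioneins, the small metal-binding proteins, MT2A (970 ± 109 TPM), MT1E (101 ± 9.50 TPM) and MT1X (20.5 ± 0.436 TPM) were expressed, and MT1H, MT1M and MT3 had 0 counts. In glycolysis the lactate exporter SLC16A3 measured 646, 578 and 602 CPM, while SLC16A1, the other lactate carrier of the list, measured 0.316, 0.304 and 0.175 CPM. In the ATF4 list PSAT1, of serine synthesis, measured 174, 173 and 153 CPM, and PHGDH, the enzyme before it, had at most 0.0263 CPM. SLC7A5, an amino acid carrier, was the highest of that list at 625 ± 35.0 TPM. The median ratio of highest to lowest library was 1.05 for 18 S phase genes and 1.23 for 12 immediate early genes with 100 counts or more, against 1.09 for all names tested. Of these, 0 of 18 and 2 of 12 (FOS and EGR1) were varying, against 2.11% of all names.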
